A study of Mus musculus with 6 samples.

Results

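Lin28a and Lin28b, together with 6 genes linked to them through the let-7 microRNAs (Hmga2, Igf2bp1, Igf2bp2, Igf2bp3, Trim71 and Dis3l2), were followed in mouse neuroblastoma cells in which the circular RNA circRtn4 was silenced. These 8 genes, of 54532 genes listed, were chosen by name as the Lin28 and let-7 axis and also on the measured difference between si-circRtn4 and si-NC cells, which was already known. Their values in that comparison are therefore a description, and no test is given for them. RNA sequencing was done on 6 libraries of Neuro2A (N2a) cells, which grow as neuroblast-like cells from a mouse neural tumour, with the strain labelled C57BL/6. In 3 libraries the cells had received a control siRNA (si-NC), and in the other 3 an siRNA against circRtn4 (si-circRtn4), a circle spliced from exons of Rtn4. The labels name no other allele or agent and give only the growth medium, but the study's general methods describe transfected N2a cells being moved to a differentiation medium with retinoic acid before harvest. Whether that was done for these 6 libraries is not stated. No source says whether the 3 libraries of a group came from separate cultures, so the p-values measure only the spread between these libraries, which may be technical.

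The 2 Lin28 proteins bind RNA through a cold shock domain and a pair of zinc knuckles. They hold back the maturation of let-7 by binding the terminal loop of its precursor, and Lin28a recruits terminal uridylyl transferases (Tut4 and Tut7) that add a uridine tail, after which the exonuclease Dis3l2 degrades the precursor. Mature let-7 in turn lowers the mRNAs of both Lin28 genes, of Trim71, of Hmga2 and of the Igf2bp family, so that Lin28 and let-7 form a double negative loop. Lin28 is abundant in embryonic stem cells and in early neural precursors, and let-7 accumulates as neurons mature. High Lin28b is known in neuroblastoma, where MYCN is one of the let-7 targets.

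The let-7 family is shown first, because the bases it pairs with tie most of the 8 genes together. RefSeq lists 11 mature let-7 names (with miR-98) in the GRCm38.p6 assembly, and 10 of them share the seed GAGGUAG at bases 2 to 8. Capitals mark these bases, and let-7j is the 1 name with another seed.
let-7a-5p: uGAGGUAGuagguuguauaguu
let-7d-5p: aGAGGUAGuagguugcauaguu
let-7g-5p: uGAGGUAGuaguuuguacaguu
miR-98-5p: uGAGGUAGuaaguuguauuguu
let-7j: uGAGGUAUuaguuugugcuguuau

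A site was counted where the longest annotated 3′ UTR of a gene (GENCODE M21, GRCm38) held CTACCTC on the transcribed strand, the 7 bases that pair with the let-7 seed, and as an 8-base site where an A followed. Of the 8 genes, 7 held at least 1 site and Dis3l2 held 0 in its UTR of 350 bases. The 20 sites, of which 13 were 8-base sites, were spread unevenly. Trim71 held 4 sites, all of 8 bases, in 5512 bases of UTR. Lin28b also held 4 in 4445 bases, only 1 of them of 8 bases. Lin28a held 2 in 2775 bases, both of 8 bases. Hmga2 held 4 sites in 3014 bases, 1 of them of 8 bases, and Igf2bp1 held 4 in 6337 bases, 3 of them of 8 bases. Igf2bp2 and Igf2bp3 held 1 site of 8 bases each. Among all 20908 UTRs, 9.05% held a let-7 site, 1.08% held at least 2 and 0.0574%, which is 12 UTRs, held at least 4. Only 3 of the 20908 UTRs held at least 4 sites of 8 bases. The sites of the 3 best expressed of these target genes are shown with 11 bases on each side, read on the minus strand that codes all 3 genes, with the paired bases in capitals.
Lin28a, chr4:134005190-134005196: agcctgttgaaCTACCTCatttttgccga
Lin28a, chr4:134004552-134004558: tcgccacaaacCTACCTCactgtgttgaa
Lin28b, chr10:45381023-45381029: gggcgggaagtCTACCTCatgcaagcaca
Lin28b, chr10:45378649-45378655: cttgttagtaaCTACCTCtgagtttgaca
Lin28b, chr10:45378477-45378483: acagcacatggCTACCTCccagctaccac
Lin28b, chr10:45377061-45377067: gatggcaccgaCTACCTCttcaatcactt
Trim71, chr9:114512473-114512479: ttgcctaagtcCTACCTCagcttaaattt
Trim71, chr9:114512377-114512383: ataatttctatCTACCTCaactctttgca
Trim71, chr9:114509048-114509054: gtatggattttCTACCTCaattttggcaa
Trim71, chr9:114509022-114509028: caaaaagttgtCTACCTCacgtcggcacc

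In Trim71 the sites lay as 2 close pairs, at bases 166 and 262 and at bases 3591 and 3617 of the UTR. In Lin28b the only 8-base site lay at base 36, near the stop codon. Sites for miR-24-3p, the microRNA that the study paired with circRtn4, were searched in the same way with CTGAGCC. This word was found once among the 8 genes, in Igf2bp1, and 16.3% of all UTRs held it. The word ACCCTTT, which pairs with the guide seed of the siRNA against circRtn4, was found in 0 of the 8 genes and in 10.98% of all UTRs. A match is a match of letters only.

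**Figure D1:**
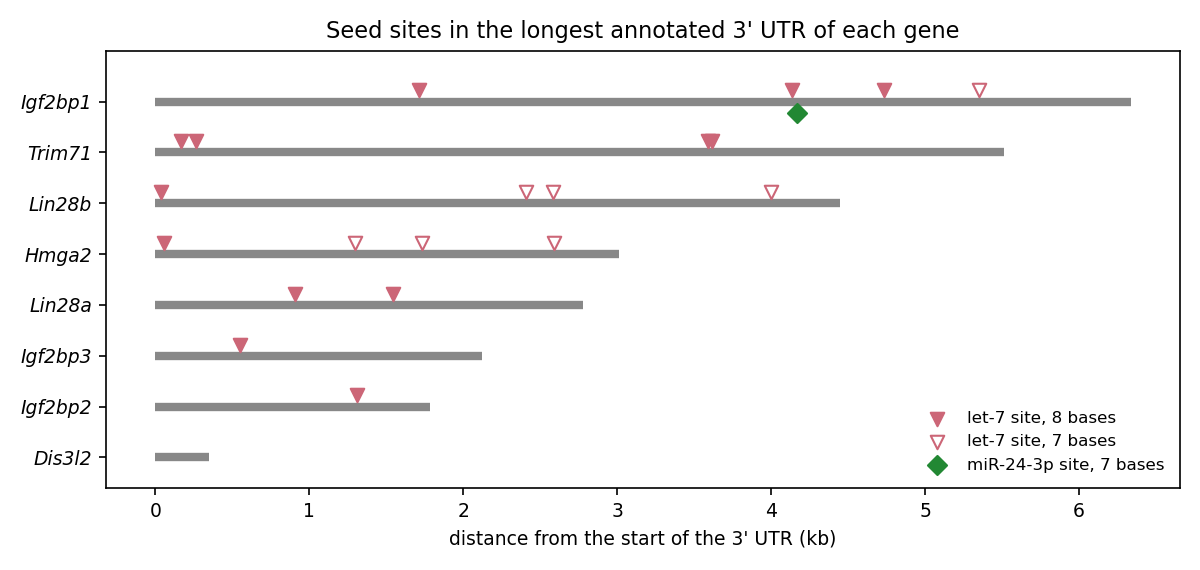
Positions of seed sites along the longest 3′ UTR annotated for each of the 8 genes, in kb from the start of the UTR; each grey bar is a UTR, filled triangles are let-7 sites of 8 bases, open triangles let-7 sites of 7 bases, and the diamond is a miR-24-3p site. Dis3l2, with 350 bases of UTR, has no site, while Trim71, Lin28b, Hmga2 and Igf2bp1 have 4 let-7 sites each, and the pair of Trim71 at 3591 and 3617 overlaps in the drawing.

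Levels are given as FPKM, that is fragments counted per kilobase of gene and scaled to the depth of the library, so that genes of different length can be set side by side within a library. Per library, 14100818 to 14748929 reads fell on genes with si-NC, and 13541198 to 15122063 with si-circRtn4. The 6 markers of sympathetic neuroblasts examined each had a mean of at least 1 FPKM, and their summed level was 944 to 1060 FPKM in si-NC against 675 to 952 FPKM in si-circRtn4 cells. None of 4 fibroblast, 4 macrophage or 3 endothelial markers reached a mean of 1 FPKM. Their summed levels were 0.114 to 0.226 against 0.255 to 0.407 FPKM, 0.448 to 1.38 against 0.710 to 1.31 FPKM and 0.310 to 0.777 against 0.314 to 0.683 FPKM, in that order. Rtn4, the host gene of the silenced circle, was at 61.0, 66.8 and 69.8 FPKM in si-NC and at 50.1, 56.7 and 62.7 FPKM in si-circRtn4 cells, so the groups overlapped (limma, adjusted p = 0.216, and 0.0447 with the replicate number as a block). These values count the gene as a whole and do not measure the circle.

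The 8 genes covered a wide range of levels in si-NC cells. Lin28a was the most abundant at 19.7 ± 0.962 FPKM (SD, n = 3), followed by Lin28b at 8.19 ± 0.677 and Trim71 at 6.06 ± 0.370 FPKM (SD, n = 3). Dis3l2 came next at 3.09 ± 0.414 FPKM (SD, n = 3). Igf2bp3 at 0.280 ± 0.0770 and Igf2bp2 at 0.131 ± 0.0215 FPKM (SD, n = 3) were far lower, and Igf2bp1 and Hmga2 were listed at 0. Each neighbour in this order was separated from the next with no overlap of the 3 libraries, except Igf2bp1 and Hmga2, which could not be ranked. The steps were uneven. Lin28a was 2.41 times as abundant as Lin28b and Lin28b 1.35 times as abundant as Trim71, whereas Dis3l2 was 11.02 times as abundant as Igf2bp3.

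**Figure D2:**
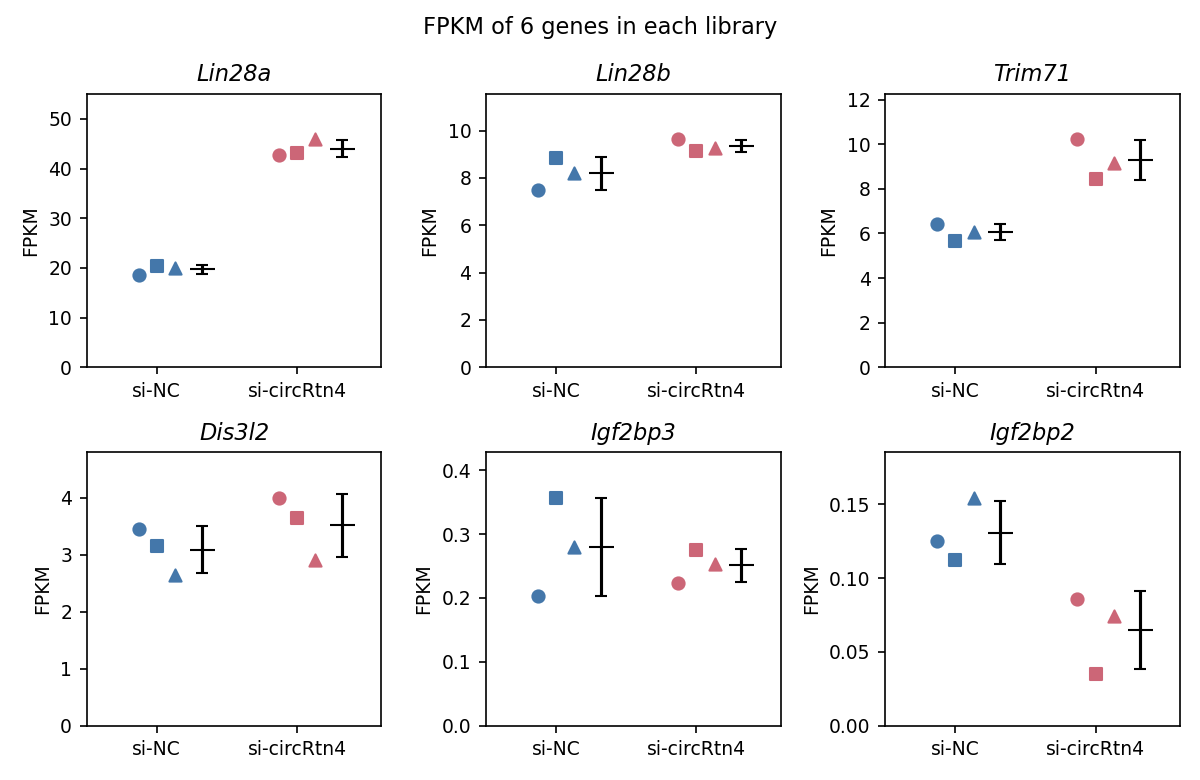
FPKM of the 6 genes with any read in each library, one panel per gene with its own vertical axis; circles, squares and triangles are replicates 1, 2 and 3 of the si-NC and si-circRtn4 groups, and black bars give the mean ± SD of 3 libraries. Lin28a lies at 18.6 to 20.4 FPKM in si-NC and at 42.8 to 45.9 FPKM in si-circRtn4, whereas the points of Dis3l2 and Igf2bp3 overlap between groups.

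Of the 8 genes, 4 had a mean of at least 1 FPKM, and in 3 of these 4 (Lin28a, Lin28b and Trim71) every si-circRtn4 library lay above every si-NC library. Of all 12749 genes at that level, 16.2% were separated upward in the same way. Since the genes were chosen on this comparison, nothing is read from that count.

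Lin28a (ENSMUSG00000050966, chr4:134003330-134018841, minus strand), the Lin28 protein best known from embryonic stem cells, had the largest difference of the 8. Control libraries held 18.6, 20.4 and 20.05 FPKM, and si-circRtn4 libraries held 42.8, 43.1 and 45.9 FPKM. The 3 silenced libraries lay close together and far above all controls. The means of 19.7 ± 0.962 and 44.0 ± 1.72 FPKM (SD, n = 3) differed by 1.12 on the log2(FPKM + 1) scale, with a standard error of 0.07, and their ratio was 2.23. In reads, Lin28a had 1121 to 1177 in si-NC and 2435 to 2682 in si-circRtn4 libraries. The difference between libraries of the same number was 1.16, 1.04 and 1.16 on the same log2 scale. Ordered by size, it was number 31 from the top among the 12749 genes. Lin28a shares 234 of its 3996 exonic bases with Gm13061 on the opposite strand, and whether the counting used strand is not given in the sources used here. Gm13061 had 10 to 13 reads in si-NC and 14 to 27 in si-circRtn4 libraries, far fewer than Lin28a.

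Lin28b (ENSMUSG00000063804, chr10:45376620-45486395, minus strand), the paralog that holds let-7 back in many tumours, moved far less. It was at 7.50, 8.85 and 8.21 FPKM in si-NC and at 9.64, 9.12 and 9.26 FPKM in si-circRtn4 libraries. The groups did not overlap, but the highest control and the lowest silenced library were only 8.85 and 9.12 FPKM. The means of 8.19 ± 0.677 and 9.34 ± 0.267 FPKM (SD, n = 3) differed by 0.17 on the log2(FPKM + 1) scale, with a standard error of 0.08. Libraries of the same number differed by 0.32, 0.04 and 0.16 on that scale.

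The balance of the 2 Lin28 mRNAs therefore differed between the groups. The ratio of Lin28a to Lin28b was 2.48, 2.31 and 2.44 in si-NC and 4.44, 4.73 and 4.96 in si-circRtn4 libraries. All silenced libraries lay above all controls. Lin28a made up 69.8% to 71.3% of the summed Lin28 FPKM in control cells and 81.6% to 83.2% in silenced cells. The summed level was 27.9 ± 1.62 FPKM in si-NC and 53.3 ± 1.65 FPKM in si-circRtn4 libraries (SD, n = 3).

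Trim71 (ENSMUSG00000079259, chr9:114507133-114564369, minus strand), the mammalian lin-41, is a ubiquitin ligase and RNA-binding protein of early embryos and the target with the 4 sites of 8 bases shown above. It was at 6.43, 5.69 and 6.06 FPKM in si-NC and at 10.2, 8.46 and 9.18 FPKM in si-circRtn4 libraries. The lowest silenced library was above the highest control. The means of 6.06 ± 0.370 and 9.29 ± 0.893 FPKM (SD, n = 3) differed by 0.54 on the log2(FPKM + 1) scale, with a standard error of 0.09, and their ratio was 1.53. Libraries of the same number differed by 0.60, 0.50 and 0.53 on that scale. Trim71 had 765 to 905 reads in si-NC and 1229 to 1359 in si-circRtn4 libraries.

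Dis3l2 (ENSMUSG00000053333, chr1:86703808-87050095, plus strand), the exonuclease that removes uridylated let-7 precursors, was at 3.46, 3.16 and 2.64 FPKM in si-NC and at 4.004, 3.64 and 2.91 FPKM in si-circRtn4 libraries. The groups overlapped, although within each replicate number the silenced library was the higher, by 0.17, 0.16 and 0.10 on the log2(FPKM + 1) scale. The means were 3.09 ± 0.414 and 3.52 ± 0.555 FPKM (SD, n = 3), a difference of 0.14 on the log2(FPKM + 1) scale with a standard error of 0.13.

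**Figure D3:**
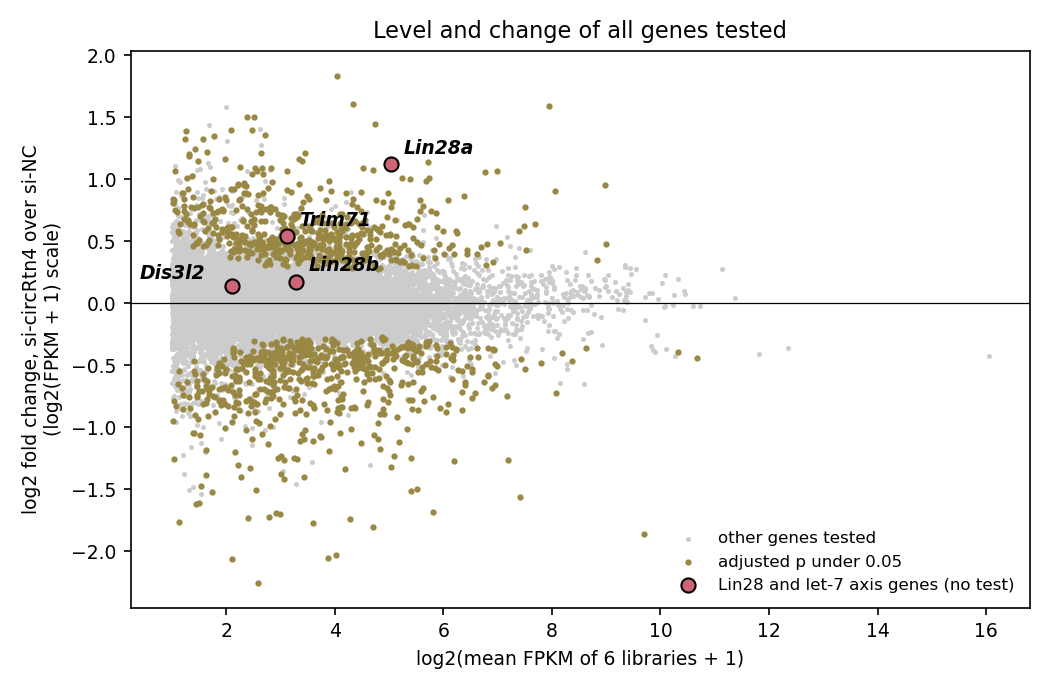
Log2 fold change of si-circRtn4 over si-NC on the log2(FPKM + 1) scale against log2 of the mean FPKM plus 1, for the 12749 genes tested; the 4 axis genes at this level are marked with large circles and carry no test, and the other genes at an adjusted p under 0.05 are coloured. Lin28a at 1.12 and Trim71 at 0.54 lie in the upper part of the cloud, and Lin28b at 0.17 and Dis3l2 at 0.14 lie within it.

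The Igf2bp proteins bind and stabilise mRNAs, Igf2 among them. Igf2bp2 (ENSMUSG00000033581, chr16:22059009-22163299, minus strand) was at 0.125, 0.112 and 0.154 FPKM in si-NC and at 0.0855, 0.0347 and 0.0743 FPKM in si-circRtn4 libraries. All silenced libraries lay below all controls, the opposite side from Lin28a and Trim71. These levels rest on 42 reads over the 3 si-NC libraries (95% exact Poisson interval 30.3 to 56.8) and 21 over the 3 si-circRtn4 libraries (12.9993 to 32.1). The intervals cover counting error only. They overlap slightly, which does not decide whether counting error could give the difference, and this was not tested. Igf2bp3 (ENSMUSG00000029814, chr6:49085223-49214957, minus strand) was at 0.203, 0.357 and 0.280 FPKM in si-NC and at 0.224, 0.276 and 0.253 FPKM in si-circRtn4 libraries. The groups overlapped, with 99 reads (80.5 to 121) against 91 reads (73.3 to 112). Igf2bp3 shares 1529 exonic bases with Malsu1 on the opposite strand, which had 298 to 348 reads per library, so that its low level is uncertain.

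Hmga2 (ENSMUSG00000056758, chr10:120361275-120476469, minus strand), an architectural chromatin protein and a classic let-7 target, had 0 reads in all 6 libraries. A count of 0 allows up to 3 reads, which corresponds to 0.0285 to 0.0317 FPKM in single libraries. Igf2bp1 (ENSMUSG00000013415, chr11:95957163-96005940, minus strand) also had 0 reads in all 6 libraries, with an upper limit of 0.0199 to 0.0221 FPKM. A difference between groups was thus not detectable for either gene at this depth. Hmga2 and Igf2bp1 each held as many let-7 sites as Lin28b and Trim71.

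The sites were next set against the change of all genes, to ask whether genes that share the let-7 word with these targets moved with them. Of 10688 genes tested that had an annotated 3′ UTR, 1119 held at least 1 let-7 site. Lin28a, Lin28b and Trim71 are among them and were chosen on this comparison, so they were set aside here. Of the other 1116 genes, 61 rose and 55 fell at an adjusted p under 0.05 (limma, Benjamini-Hochberg). That is 5.47% and 4.93%, against 4.72% and 5.31% of all genes with such a UTR. The median log2 fold change of the 1116 genes was 0.01, against 0.00 over all genes with a UTR. Of the 1116, 589 lay above 0 and 527 below. The 389 genes with an 8-base site, Lin28a, Lin28b and Trim71 among them, had a median of 0.03. Of these 389, 22 were called higher (5.66%) and 16 lower (4.11%), and 217 lay above 0 and 172 below. These shares and medians were near those of the background, with a small tilt upward that was not tested. Without Lin28a, Lin28b and Trim71, 61 of 1116 genes were called higher and 55 lower.

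The counts of genes called were sensitive to the libraries and the scaling. With the replicate number as a block, 126 genes with a let-7 site were called higher and 104 lower, while of all 12749 genes 1185 were called higher and 1243 lower. With FPKM rescaled to the same sum in each library (TPM), the split was 111 higher and 32 lower, and that of all genes was also tilted upward, at 972 and 393. With the short gene Gm23935 left out of that sum, the split was 64 higher and 51 lower, and that of all genes 592 and 538. With 1 library left out the counts were smaller, as they were over all genes, at 163 to 407 higher and 217 to 419 lower. They were 46 and 30 without the first si-NC replicate, 18 and 18 without the second and 33 and 32 without the third. They were 25 and 25 without the first si-circRtn4 replicate, 23 and 23 without the second and 33 and 40 without the third.

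The number of sites did not order the changes in a simple way. The median log2 fold change was 0.01 for the 979 genes with 1 site, 0.03 for the 120 with 2 and -0.09 for the 14 with 3. Only 6 tested genes held 4 or more sites. They were Trim71, Lin28b, the orphan nuclear receptor Nr6a1 with 8 sites, D10Wsu102e, Hic2 and Zbtb37, the last 3 with 4 each. The 4 genes among them other than Trim71 and Lin28b lay between -0.13 and 0.10 on the log2(FPKM + 1) scale. None of these 4 was called by limma at an adjusted p under 0.05, 0 had an unadjusted p under 0.05, and limma-voom on the recovered reads called 0. Genes with a site also had longer UTRs, with a median of 2334 bases against 1057 bases for genes without one, and the part of length in these shares was not tested.

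**Figure D4:**
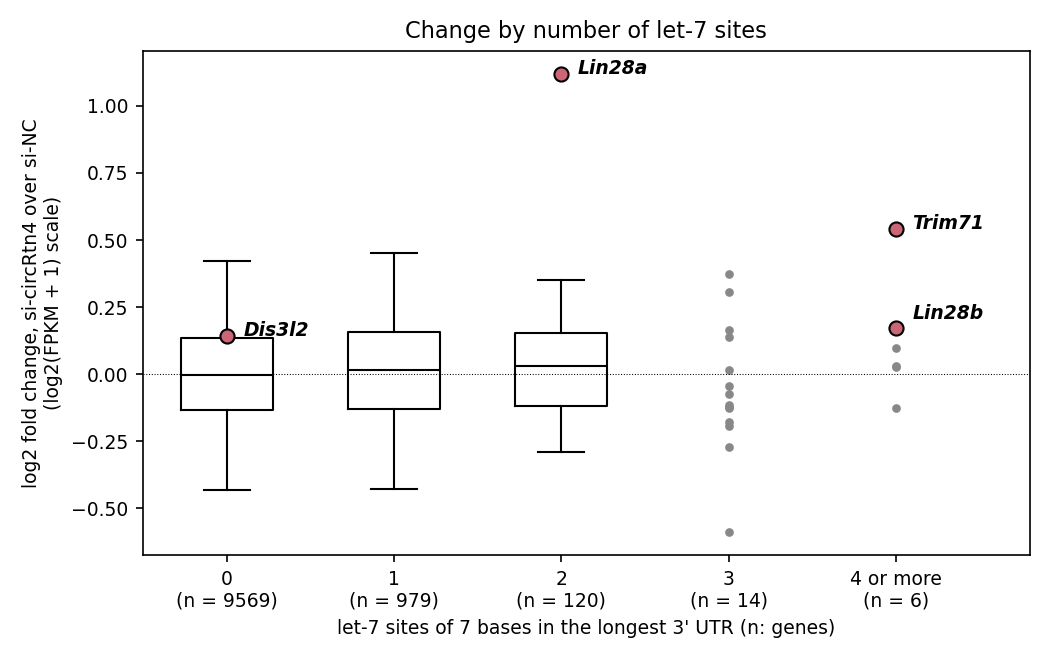
Log2 fold change of si-circRtn4 over si-NC on the log2(FPKM + 1) scale by the number of 7-base let-7 sites in the longest 3′ UTR, for 10688 genes; boxes give the median and quartiles with whiskers from the 5th to the 95th percentile, groups of under 20 genes are drawn as points, and axis genes are named circles. The 3 boxes are centred near 0, with medians of -0.00, 0.01 and 0.03, and Lin28a lies far above the box of genes with 2 sites.

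Among the other genes with a let-7 site, the largest rises at an adjusted p under 0.05 were Osgin1 (log2 fold change 1.35, SE 0.30), Trim16 (1.21, SE 0.11), Lrig1 (0.95, SE 0.11), Scrt2 (0.95, SE 0.10) and Mocs2 (0.93, SE 0.08). Lrig1 restrains epidermal growth factor receptor signalling, and Scrt2 is a neuronal zinc finger repressor. Trim16 was at 2.70, 3.04 and 2.58 FPKM in si-NC and at 6.63, 8.50 and 8.22 FPKM in si-circRtn4 libraries (limma, adjusted p = 0.00197). Osgin1 was at 1.59, 0.622 and 0.534 FPKM against 5.05, 4.64 and 2.11 FPKM, and its adjusted p of 0.0331 was lost with no filter on low values (0.127) and in 4 leave-outs. It was 0.103 and 0.0900 without si-NC replicates 2 and 3, and 0.102 and 0.112 without si-circRtn4 replicates 1 and 2. The largest falls were Tspan7 at -1.12 (SE 0.09), Tapbp at -1.10 (SE 0.12), Peg3 at -1.06 (SE 0.08), Grk5 at -1.02 (SE 0.11) and Unc5a at -1.02 (SE 0.09). Peg3 is an imprinted zinc finger gene, Unc5a a netrin receptor and Tapbp a chaperone of antigen loading. Peg3, for example, fell from 35.1, 35.1 and 34.3 FPKM to 16.3, 14.8 and 17.5 FPKM (limma, adjusted p = 0.00127). Each of these 10 genes held 1 let-7 site, which was of 8 bases only in Lrig1.

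The machinery that makes, tails and uses let-7 was examined as a list of 22 genes, all with a mean of at least 1 FPKM. None was called higher (limma, with 0 at an unadjusted p under 0.05 and 0 by limma-voom), and 2 fell, against 4.36% of all genes called higher and 4.82% called lower. The median log2 fold change was -0.03, against 0.00 over all genes tested. Ago1, an Argonaute protein that carries mature microRNAs, was at 14.4, 14.1 and 14.7 FPKM in si-NC and at 9.80, 8.18 and 10.0 FPKM in si-circRtn4 libraries. It fell by 0.58 on the log2(FPKM + 1) scale (SE 0.09, limma adjusted p = 0.01005), with no overlap of the groups. Ddx5, a helicase of the Drosha complex, was at 311, 336 and 343 FPKM in si-NC and at 219, 259 and 272 FPKM in si-circRtn4 libraries. It fell by 0.40 (SE 0.10, limma adjusted p = 0.0487), a call that was lost when any 1 of the 6 libraries was left out. Its adjusted p was then 0.0713, 0.149 and 0.139 without si-NC replicates 1, 2 and 3, and 0.0953, 0.109 and 0.0554 without si-circRtn4 replicates 1, 2 and 3.

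The enzymes that work with Lin28 did not pass the test, and they were chosen for mention by their role after the values were seen. Tut4 went from 13.2 to 15.7 FPKM in the mean (log2 fold change 0.24, limma adjusted p = 0.199). Tut7, the related transferase, went from 3.33 to 2.56 FPKM (-0.29, limma adjusted p = 0.127), and limma-voom gave it an adjusted p of 0.0468. Dicer1, which cuts the let-7 precursor and is itself a let-7 target, went from 9.34 to 10.5 FPKM (0.15, limma adjusted p = 0.316).

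Other genes known as let-7 targets were examined as a list of 27, of which 23 were tested, and Cdk6 and Plagl1 were listed at 0 in all libraries. None was called higher by limma, with 3 higher at an unadjusted p under 0.05 and 1 called higher by limma-voom, and 1 of 23 fell, which is 4.35%, near the 4.82% of all genes called lower (4.36% were called higher). The median log2 fold change was 0.10, with 16 genes above 0 and 7 below, against 0.00 over all genes tested. The gene that fell was Ccnd1, which encodes cyclin D1. Ccnd1 held 0 let-7 sites in its longest annotated 3′ UTR. It was at 79.4, 81.0 and 79.9 FPKM in si-NC and at 57.5, 57.2 and 61.0 FPKM in si-circRtn4 libraries, with no overlap. It fell by 0.45 on the log2(FPKM + 1) scale (SE 0.07, limma adjusted p = 0.00970), and without si-NC replicate 2 the adjusted p was 0.0514.

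Mycn, the neuroblastoma oncogene and let-7 target, was picked out after its values were seen. It was at 12.6, 13.5 and 15.9 FPKM in si-NC and at 18.5, 19.9 and 27.6 FPKM in si-circRtn4 libraries. Every silenced library lay above every control. The log2 fold change was 0.60 (SE 0.15) with a limma adjusted p of 0.0527, which missed the threshold, and 0.00680 with the replicate number as a block. Mycn was also called higher by limma with TPM (adjusted p = 0.0277), TPM without Gm23935 (0.0328) and quantile normalization (0.0440), and by limma-voom (0.00876). It was not called with a pseudocount of 0.1, with no filter on low values or with any 1 library left out. The block also moved Irs2 (0.30, adjusted p = 0.0436 in place of 0.210) and Plagl2 (-0.23, adjusted p = 0.0482 in place of 0.144) past the threshold of limma. In Myc the log2 fold change was 0.05 (limma adjusted p = 0.751).

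The insulin-like growth factor axis, on which the Igf2bp proteins and Lin28 are known to act, was listed with 12 genes, of which 7 were tested. None was called higher by limma, with 1 higher at an unadjusted p under 0.05 and 1 called higher by limma-voom, and 1 of 7 fell, against 4.36% of all genes called higher and 4.82% lower. The median log2 fold change was 0.02, against 0.00 over all genes tested. Irs1, an adaptor of the insulin and IGF receptors, was at 15.4, 11.1 and 13.8 FPKM in si-NC and at 7.20, 5.45 and 7.71 FPKM in si-circRtn4 libraries. All silenced libraries lay below all controls, and it fell by 0.89 on the log2(FPKM + 1) scale (SE 0.15, limma adjusted p = 0.0135). The call on Irs1 was lost with no filter on low values (adjusted p = 0.0616). Igfbp5, an IGF binding protein picked out after its values were seen, had a log2 fold change of 0.39. Its limma adjusted p was 0.0555, and 0.0166 with the replicate number as a block. Igfbp5 was also called higher with TPM, TPM without Gm23935 and limma-voom, and not under the other alternatives. Igf2, the mRNA after which the Igf2bp genes are named, was at a mean of 0 FPKM in si-NC and 0.00374 FPKM in si-circRtn4 libraries.

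Genes that accompany Lin28a in embryonic stem cells were mostly under 1 FPKM. Of 9 listed, Sox2, Tdgf1 and Zfp42 were at 0 in all 6 libraries, and 2 reached 1 FPKM and were tested. Klf4 went from 3.00 to 3.53 FPKM in the mean (log2 fold change 0.19, limma adjusted p = 0.485), and Dppa4 from 1.77 to 1.82 FPKM (0.02, limma adjusted p = 0.955). Neither had an unadjusted p under 0.05, and limma-voom called 0 of them.

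**Figure D5:**
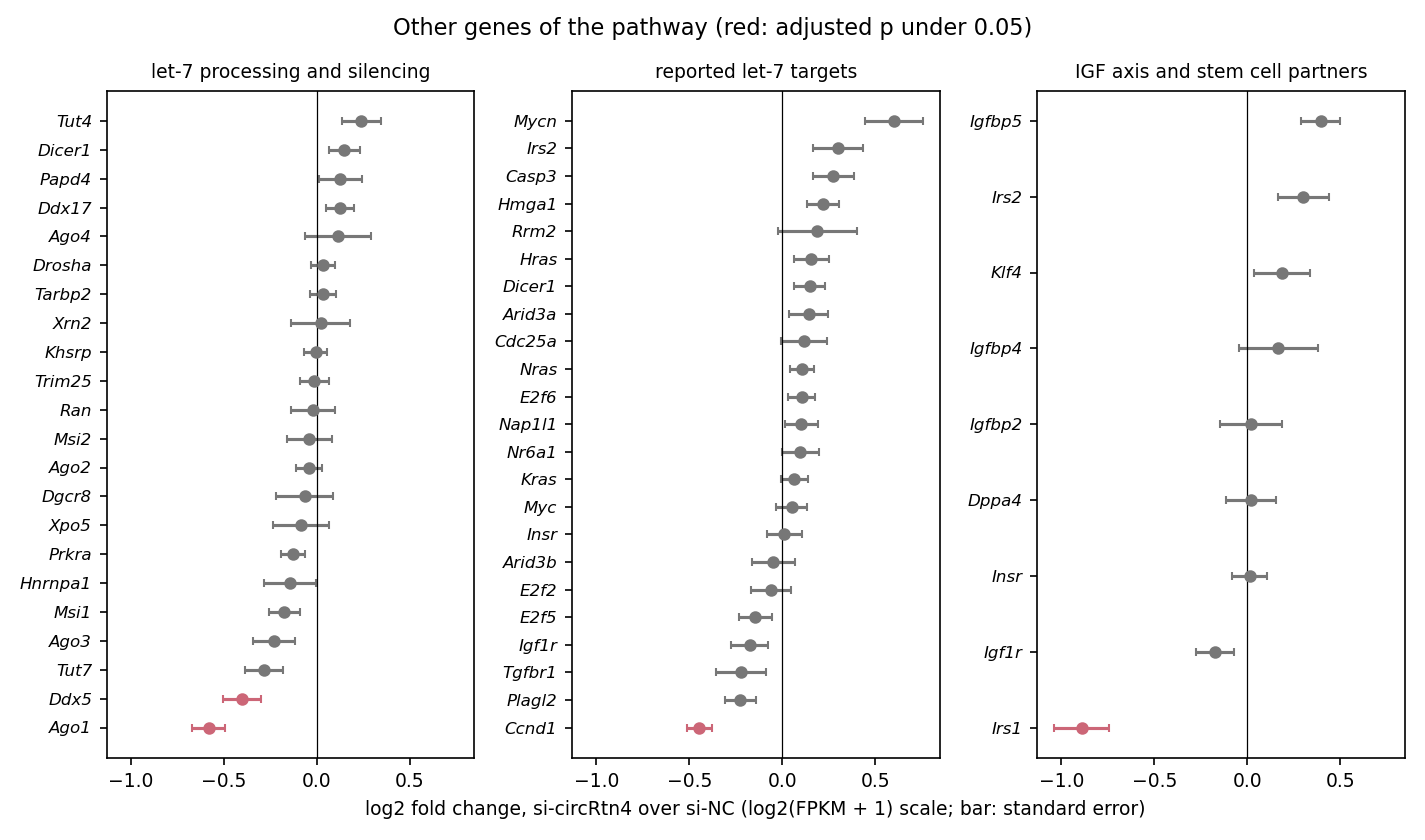
Log2 fold change of si-circRtn4 over si-NC on the log2(FPKM + 1) scale for the genes tested in 3 panels, let-7 processing factors, known let-7 targets, and the IGF axis with the stem cell partners; points are fold changes, bars the standard error, and red marks an adjusted p under 0.05. The red points all lie on the low side, with Irs1 at -0.89, Ago1 at -0.58, Ccnd1 at -0.45 and Ddx5 at -0.40, and Mycn at 0.60 is the grey point farthest to the high side.

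Mature let-7 was not measured in these libraries. Of 12 let-7 loci listed in the gene table, 1 had any read, Mir98 with 3 reads over the 6 libraries. The genes in whose transcripts let-7 loci lie were used as the nearest measure of their transcription, and 6 of 9 such host genes were tested. None of the 6 was called by limma, against 4.36% of all genes called higher and 4.82% lower, with 2 lower at an unadjusted p under 0.05 and 0 called by limma-voom. Wdr82, the host of let-7g, went from 20.7 ± 0.860 to 17.4 ± 0.0960 FPKM (SD, n = 3, log2 fold change -0.23, limma adjusted p = 0.0722, and 0.0395 with the replicate number as a block). Huwe1, a ubiquitin ligase gene that hosts let-7f-2 and miR-98, went from 41.8 ± 0.755 to 36.8 ± 1.13 FPKM (SD, n = 3, log2 fold change -0.18, limma adjusted p = 0.132). In both genes, and also in the hosts Lncppara and 3110039I08Rik, every silenced library lay below every control. In the host Spaca6 every silenced library lay above every control. Of all 12749 genes tested, 1978 were separated downward and 2066 upward in the same way. The let-7d host 6720427I07Rik had a log2 fold change of 0.43 (limma adjusted p = 0.218, and 0.0343 with the block). The hosts Lncppara (-0.21), 3110039I08Rik (-0.17) and Spaca6 (0.06) had limma adjusted p-values of 0.319, 0.450 and 0.702.

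The genes whose levels followed the Lin28 genes most closely over the 6 libraries were named by Pearson's r of log2(FPKM + 1) among 7774 protein-coding genes at a mean of at least 5 FPKM. For Lin28a they were the zinc finger gene Sall2 (r = 0.997), Cdca4 (0.997) and the metalloprotease gene Adam19 (0.996), and 426 genes had r over 0.9. For Lin28b they were Eif5a2 (0.990), a translation factor gene, Usp24 (0.980), a deubiquitinase gene, and Slc44a1 (0.979), a choline transporter gene, and 104 genes had r over 0.9. The 6 points share 2 groups, so that any gene that separated the groups correlated with Lin28a, and these values are a description.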

How the data were processed

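RNA was sequenced from 6 libraries of N2a cells, 3 si-NC and 3 si-circRtn4, grouped and numbered by their labels. Per gene, the authors deposited FPKM together with its length and coordinates. The counting tool and its use of strand are not given in the sources used here. The submitters' processing notes name Bowtie 0.12.2 and the builds mm8 and mm9. Of the 54532 genes listed, however, 54409 were found in GENCODE M21, and 98.1% of those listed have its GRCm38 coordinates, which are used here. Another 6 numeric columns were not matched to these 6 libraries and were left out, and the comparison was made within this table only. FPKM multiplied by length and divided by the value of 1 read in that library gave whole reads (tolerance 0.01) for 100% of values.

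From these values log2(FPKM + 1) was computed and fitted with limma 3.58.1 (R 4.3.3), two-sided, with a mean-variance trend, over the 12749 genes whose mean reached 1 FPKM, with Benjamini-Hochberg adjustment over all of them. The pseudocount understates the fold change of low genes. Of these genes 556 were called higher and 615 lower. Tested on simulated data, the fit recovered 91.8% of changes of 2-fold among 12794 genes, and 6.32% of its calls were false. The simulation drew independent libraries with a dispersion of 0.01 for every gene and 200 genes changed. Of these 200, 194 passed the filter on low values, and the 91.8% refers to them. The rates of the simulation hold for those settings and were not measured for these libraries. Replicate numbers paired the libraries by the data only, since same-numbered libraries deviated together (r = 0.331, 0.190 and 0.226, with other pairs at most 0.00913).

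The 8 genes and the lists were chosen with earlier results of these data known. The genes named were all 8, Rtn4, the called genes of each list with the largest change, host genes and short lists in full. Also named were the 5 largest rises and falls among genes with a let-7 site and the 3 genes most like Lin28a and Lin28b. Other genes fell outside this rule and were named with their values known, only some of them marked so in the text. Myc, Irs2, Plagl2, Igfbp5 and Igf2 were among these others. The alternatives were a pseudocount of 0.1, TPM with and without the short gene Gm23935 (which held 13.5% to 20.7% of the FPKM sum), quantile normalization, limma-voom on the recovered reads, the replicate block, no filter on low values, each library left out, 8-base sites and all annotated UTRs. A planned description of the Lin28 proteins was not run. Some planned marker genes are not reported here.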

Additional observations from a re-analysis of the deposited data

How the results depend on the processing

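The SD used here was that of log2(FPKM + 1) within the groups, pooled for each gene. The replicate block and no filter leave a fold change as it is, so they could not move it. For Dis3l2 the SD of 0.166 was larger than its change of 0.14, so staying within it says little. Under the alternatives, 48 of 52 log2 fold changes of the axis genes stayed within 1 SD of the value given and 0 changed sign. The 4 others were Lin28a with TPM (1.24) and limma-voom (1.18), Lin28b with TPM (0.28) and Trim71 with TPM (0.68), where TPM moved the median of all genes by 0.09. For processing factors called lower, TPM and no filter gave 1 each, and leaving out 1 library gave 1 to 1. For let-7 targets called higher, TPM, TPM without Gm23935, quantile normalization and limma-voom gave 1 each and the replicate block 2. Targets called lower were 2 with the block and 0 to 1 with 1 library left out. In the IGF axis, TPM, TPM without Gm23935 and limma-voom called 1 gene higher, the block 2, and no filter called 0 lower. Among host genes the block called 1 higher and 1 lower. Genes with a let-7 site called higher numbered 111 with TPM, 108 with limma-voom, 126 with the block, 23 with no filter, 22 for 8-base sites and 18 to 46 with 1 library left out. Those called lower numbered 32 with TPM, 104 with the block, 21 with no filter, 16 for 8-base sites and 18 to 40 with 1 library left out. Over all genes, 972 were called higher with TPM, 902 with limma-voom, 1185 with the block, 210 with no filter and 163 to 407 with 1 library left out, and 393 were called lower with TPM, 1243 with the block, 261 with no filter and 217 to 419 with 1 library left out. The block changed no other call on a gene list beside those given in the report. Depth limited Hmga2 and Igf2bp1, at 0 reads, and Igf2bp2.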
